A study of Mus musculus with 20 samples.

Results

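The genes described here handle bile acids: they encode the 2 chains of the exporter of the enterocyte (Slc51a and Slc51b), a second exporter (Abcc3), a bile acid binding protein of the cytosol (Fabp6), the bile acid receptor FXR (Nr1h4), and the repressor SHP (Nr0b2). They were taken as a list of names, and no measured value entered the rule. The list was chosen with earlier results of these data known. Of the 6 listed genes, 5 were in the proximal colon (PC) count table of 12701 genes, and Nr0b2 was not analysed here.

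Bile acids are made from cholesterol in the liver, released into the gut to dissolve fat, and largely taken back by the wall of the ileum and, to a lesser extent, of the colon. In the absorbing cell they enter through the apical transporter Slc10a2, are carried by Fabp6, and leave at the basolateral side through the heterodimer of Slc51a and Slc51b or through Abcc3. Inside the cell they bind FXR, which with its partner RXR raises transcription of the Slc51 genes, Fabp6, and Nr0b2, and bacteria of the large intestine convert bile acids to other forms.

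RNA sequencing was carried out on whole-wall segments of the PC of 20 C57BL/6 mice, an inbred strain, bred in-house and weaned at 3 to 4 weeks of age. All mice ate the Total Western Diet (TWD), a rodent feed that follows American nutrient intake, for 6 weeks, and then for 3 weeks either the TWD alone (0% RPS) or the TWD holding 2, 5, or 10% resistant potato starch (RPS), a raw starch that gut bacteria ferment. Each diet had 5 libraries, each from a different mouse, with 20581013 to 35083751 counts. Since the wall was sequenced whole, fewer cells of a type and less RNA per cell cannot be told apart.

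The tissue held the markers that its label calls for. All 10 epithelial markers were present in every library (Epcam at 37453 or more normalised counts, which are counts divided by a size factor for the library). The medians of the 10 absorptive colonocyte markers ran from 260 normalised counts for Aqp8 and 766 for Aqp4 to 323102 for Car1. The small intestinal markers Apoa4, Lct, and Mttp were absent from the table, and Fabp1 stayed at 67.4 or below. Fabp2 and Slc5a1, also on the small intestinal list, were present at up to 23769 and 6372 normalised counts.

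One library stood apart. For each of the 5 genes, 0% RPS replicate 2 held the lowest value of all 20 libraries. Compared with the mean of the other 4 libraries on that diet, Fabp6 was 62.1-fold lower in it, Slc51a 10.4-fold, Slc51b 3.80-fold, Nr1h4 2.58-fold, and Abcc3 1.34-fold. The uptake transporter Slc10a2 was 9.28-fold lower (1092 normalised counts, against 8598 to 17311 in the other 19 libraries). Genes of position along the gut, looked at after the values had been seen, also differed: the transcription factor Osr2 stood at 652 against 4728 to 6904, Hoxd10 at 67.7 against 339 to 589, Hoxa9 at 2422 against 195 to 678, and Hoxa13 at 1024 against 34.5 to 198. Its smooth muscle score, the mean log2(normalised count + 1) over 9 of 10 listed markers, was 14.5 against 13.3 to 14.3, its fibroblast score over 6 of 6 markers was 12.6 against 10.98 to 11.8, and its leukocyte score over 4 of 8 markers was 9.93 against 8.20 to 9.27. The epithelial score lay inside the range of the other libraries, at 14.7 against 14.6 to 15.1. The score of the 10 absorptive colonocyte markers was the highest of the 20 libraries, at 13.4 against 12.4 to 13.3, with Aqp8 at 6463 (median of the 20 libraries 260), Aqp4 at 7908 (766), and Slc26a3 at 12364 (4768). The sum of these markers was the lowest, at 192594 normalised counts against 334526 to 604134, with Car1, the most abundant, at 70115 (323102). The part of these differences in the results was not tested, and the fold changes and slopes of the 5 genes against 0% RPS are given below with and without this library.

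The 5 genes lie on 4 chromosomes of GRCm39 and are protein-coding and on the minus strand. Slc51a (ENSMUSG00000035699) is at chr16:32293322-32306842 with 9 exons, Slc51b (ENSMUSG00000053862) at chr9:65319995-65330597 with 4 exons, Fabp6 (ENSMUSG00000020405) at chr11:43486872-43492469 with 4 exons, Abcc3 (ENSMUSG00000020865) at chr11:94233874-94283823 with 31 exons, and Nr1h4 (ENSMUSG00000047638) at chr10:89289742-89369497 with 9 exons. Of the exon bases of Slc51a, 25.2% overlap Pcyt1a on the plus strand, and 8.50% of those of Slc51b overlap Rasl12 and 10.4% of those of Abcc3 overlap Gm51871 in the same manner. Whether strand was used in counting is not stated, so counts from these stretches are uncertain. Fabp6 and Nr1h4 overlap no other gene.

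FXR with RXR is known to bind an inverted repeat of the hexamer AGGTCA spaced by 1 base, that is AGGTCANTGACCT, which reads the same on both strands and contains the hexamer on each. The 250 bases before the start of the canonical transcript of each gene were searched for it. For Nr1h4 this window, chr10:89342512-89342761, lies inside the gene. Fabp6, Slc51b, and Slc51a were chosen because their levels went together over the libraries, as described with the correlations. A best match of each is shown in capitals with 25 bases on either side, 5′ to 3′ on the minus strand of GRCm39.
Fabp6, chr11:43492574-43492636: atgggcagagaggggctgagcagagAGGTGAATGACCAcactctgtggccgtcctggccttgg
Slc51b, chr9:65330664-65330726: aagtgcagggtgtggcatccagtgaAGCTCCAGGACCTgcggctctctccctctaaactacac
Slc51a, chr16:32307029-32307091: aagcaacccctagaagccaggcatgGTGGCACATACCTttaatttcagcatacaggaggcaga

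The Fabp6 match shown begins 142 bases before the start and differs from the motif at C5G and T13A. Positions are counted from the 5′ end of the motif, the motif base comes first, and the promoter base comes last. A second stretch of the same promoter, aggtgaataacct, lies nearer the start and also differs from the motif at 2 positions. A match with 2 or fewer differences was found in 1.18% of the promoters of 21757 protein-coding genes and in 1.03% of those of the 11748 such genes in the table. The best match of Slc51b had 3 differences (G3C, A6C, and T8G) and that of Slc51a had 5. Those of Nr1h4, Abcc3, Nr0b2, and Slc10a2 had 4 each. The hexamer on either strand was present in the promoters of Slc51b and Nr1h4, with 1 copy each, and in 13.1% of all promoters. These matches describe the sequence only.

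Levels between genes were compared per kilobase of exon, as normalised counts. Fabp6 had the highest level over the 20 libraries, 5224 ± 3455 per kilobase (SD), followed by Slc51a with 2650.3 ± 812, Slc51b with 2558 ± 835, Abcc3 with 1545 ± 161, and Nr1h4 with 1446 ± 312. The levels of Slc51a and Slc51b lay within each other's spread, as did those of Abcc3 and Nr1h4. Fabp6 ranged from 63.9 per kilobase in 0% RPS replicate 2 to 12131 in 2% RPS replicate 3. It was not the highest in every library, and lay below Slc51a in 0% RPS replicate 2 (255) and 10% RPS replicate 5 (783 against 1904), among others. The spread between mice also separated the genes: the coefficient of variation was 66.1% for Fabp6, 32.6% for Slc51b, 30.6% for Slc51a, 21.6% for Nr1h4, and 10.4% for Abcc3. Without 0% RPS replicate 2 it was 60.5%, 26.9%, 21.6%, 15.5%, and 8.62%.

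Each starch level was then compared with the TWD alone to see whether RPS altered these genes, using DESeq2 on all genes, where a call needed a p of at most 0.05 after Benjamini-Hochberg adjustment and at least a 1.5-fold difference. None of the 5 genes was called at any level. Of the 12561 genes tested, 0.0239% were called at 2% RPS, 0.438% at 5% RPS, and 0.9% at 10% RPS, so few calls would fall on a list of this size at that rate. edgeR also called 0 of the 5 at each level, where it called 0, 0.0566, and 0.323% of 12366 genes (at 2% RPS, 1000 genes had p under 0.05 before adjustment). At an unadjusted p under 0.05, DESeq2 placed 0, 2, and 0 of the 5 genes at 2, 5, and 10% RPS, namely Slc51b and Nr1h4 at 5% RPS, and edgeR placed the same numbers. Over all genes the share with such a p was 8.7, 16.6, and 18.8% in DESeq2 and 8.09, 15.9, and 18% in edgeR. Without 0% RPS replicate 2, DESeq2 again called 0 of the 5, with 0.0398, 0.827, and 1.6% of all genes called. The ranges of the diets overlapped for each of the 5 genes in all 6 pairs of diets. Over the 12576 genes with a count, the share whose ranges did not overlap was 0.74, 2.43, and 2.52% between 0% RPS and 2, 5, and 10% RPS, 0.596% between 2 and 5% RPS, 1.76% between 2 and 10% RPS, and 0.747% between 5 and 10% RPS. The 3 comparisons share the 0% RPS libraries and are not independent.

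**Figure D1:**
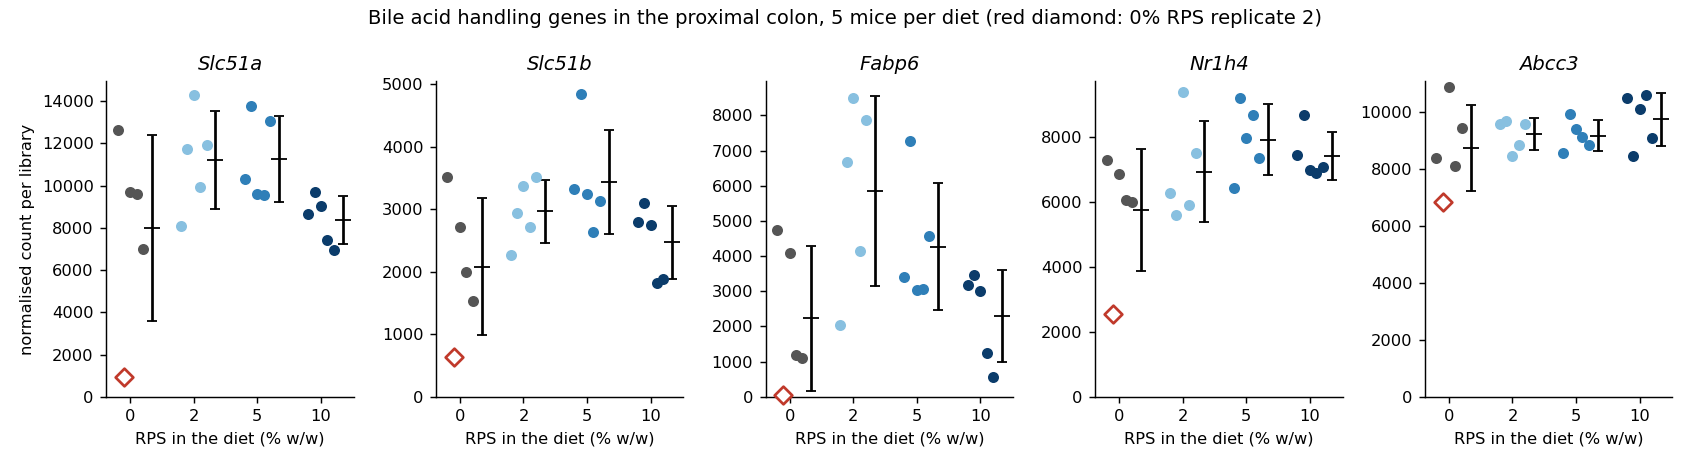
Normalised counts (y axis, starting at 0) of the 5 genes in each of the 20 PC libraries by percentage of RPS in the diet (x axis). Points are mice, bars are the mean ± SD of 5 mice, and the red diamond is 0% RPS replicate 2, which is the lowest library for every gene while the diets overlap.

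The chains of the exporter are described first. Slc51a encodes the alpha chain, which spans the membrane several times. In the 0% RPS libraries it had 12649.8, 934, 9709, 9624, and 7008 normalised counts in replicates 1 to 5. At 2% RPS the values were 8084, 11721, 14286, 9952, and 11928, and at 5% RPS they were 10292, 13789, 9619, 9538, and 13065. At 10% RPS they were 8677, 9722, 9051, 7432, and 6972. The 2 middle diets thus reached the highest values, the 10% RPS libraries lay among the lower ones, and every diet overlapped every other. The mean was 7985 ± 4418, 11195 ± 2323, 11261 ± 2015, and 8371 ± 1142 at 0, 2, 5, and 10% RPS (SD, n = 5). The log2 fold change against 0% RPS was 0.49 at 2% RPS (95% interval −0.30 to 1.28, DESeq2 adjusted p = 0.747), 0.50 at 5% RPS (−0.29 to 1.29, adjusted p = 0.548), and 0.07 at 10% RPS (−0.72 to 0.86, adjusted p = 0.944). Without 0% RPS replicate 2 these became 0.20, 0.21, and −0.22, with an interval of −0.55 to 0.11 at 10% RPS (adjusted p = 0.457), so the sign at 10% RPS rested on that library.

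Slc51b encodes the beta chain, which is needed for the alpha chain to reach the membrane. Its 0% RPS libraries had 3507, 641, 2720.0, 1998, and 1531 normalised counts. At 2% RPS there were 2275, 2945, 3370.4, 2712, and 3515, at 5% RPS 3331, 4840.0, 3248, 2642, and 3125, and at 10% RPS 2798, 3098, 2745, 1815, and 1885. The highest library of all was 5% RPS replicate 2, and the 4 other 5% RPS libraries lay below the highest 0% RPS library. The mean was 2080 ± 1098, 2963 ± 502, 3437 ± 828, and 2468 ± 581 in the same order (SD, n = 5). The log2 fold change was 0.51 ± 0.32 (SE) at 2% RPS (DESeq2 adjusted p = 0.649), 0.72 ± 0.32 at 5% RPS (95% interval 0.10 to 1.35), and 0.25 ± 0.32 at 10% RPS (adjusted p = 0.708). The difference at 5% RPS corresponds to 1.65-fold and had an unadjusted p of 0.0236 and an adjusted p of 0.224 (edgeR 0.257).

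One library of the control diet decided whether Slc51b was called at 5% RPS. Without 0% RPS replicate 1, which had the highest control value, its log2 fold change was 0.9963 with an adjusted p of 0.0375 in DESeq2, and 0.597% of all genes were called in that fit. With 0% RPS replicate 2 left out, it was 0.49 (95% interval 0.07 to 0.92, adjusted p = 0.178), and 0.28 at 2% RPS (−0.14 to 0.71). At 10% RPS the value without replicate 2 was 0.02 (−0.41 to 0.44).

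The number of Slc51b reads for each Slc51a read was examined because the chains act as a pair and a ratio within a library needs no scaling between libraries. Over the 0% RPS libraries the ratio of counts was 0.277, 0.687, 0.280, 0.208, and 0.218. It was 0.281, 0.251, 0.236, 0.272, and 0.295 at 2% RPS, 0.324, 0.351, 0.338, 0.277, and 0.239 at 5% RPS, and 0.322, 0.319, 0.303, 0.244, and 0.270 at 10% RPS. All values but that of 0% RPS replicate 2 lay between 0.208 and 0.351, and that library, with 616 reads of Slc51b and 897 of Slc51a, stood at 0.687. The mean was 0.334 ± 0.200, 0.267 ± 0.0236, 0.306 ± 0.0465, and 0.292 ± 0.0336 at 0, 2, 5, and 10% RPS (SD, n = 5). The difference of the mean log2 ratio from 0% RPS was −0.17, 0.01, and −0.05, and exact two-sided permutation tests over all 252 assignments gave p = 0.857, 0.992, and 0.960 (0.992 each when adjusted over the 3 tests), where the smallest p that can be reached is 0.00794. When 0% RPS replicate 2 was omitted, the differences were 0.13, 0.31, and 0.25 (exact permutation p = 0.317, 0.0794, and 0.103, adjusted 0.317, 0.155, and 0.155), so the sign turned at 2 and 10% RPS and no comparison passed.

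**Figure D2:**
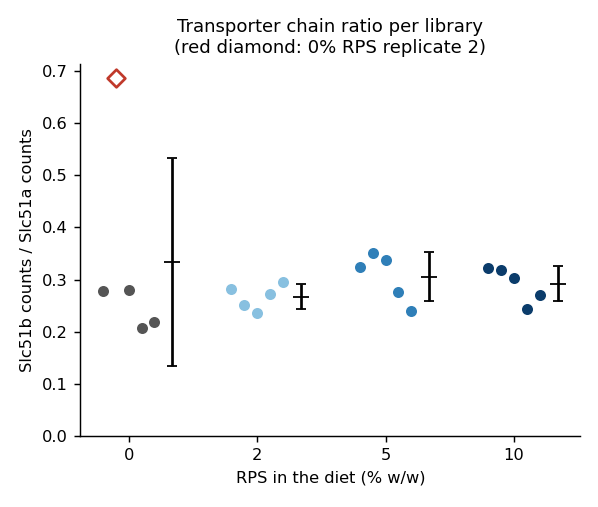
Slc51b counts divided by Slc51a counts (y axis, starting at 0) in each library by percentage of RPS (x axis), with the mean ± SD of 5 mice per diet. The red diamond, 0% RPS replicate 2, stands at 0.687 while the other 19 libraries lie between 0.208 and 0.351.

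Fabp6 encodes the ileal bile acid binding protein and varied more between mice than any of the other 4 genes. The 0% RPS libraries held 4753, 44.8, 4092, 1175, and 1102 normalised counts. At 2% RPS they held 2038, 6689.7, 8504, 4157, and 7869, at 5% RPS 3395, 7283, 3044, 3063, and 4582, and at 10% RPS 3193, 3475, 2995, 1235, and 549. The 2% RPS replicates 2, 3, and 5 and 5% RPS replicate 2 were above all 0% and 10% RPS libraries, and the other libraries of the diets overlapped. The mean was 2233 ± 2061, 5852 ± 2703, 4273 ± 1796, and 2289 ± 1309 at 0, 2, 5, and 10% RPS (SD, n = 5).

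The log2 fold change of Fabp6 was 1.39 ± 0.73 (SE) at 2% RPS, or 2.62-fold with a 95% interval of 0.971 to 7.07 (DESeq2 adjusted p = 0.578). It was 0.94 at 5% RPS (1.91-fold, 0.709 to 5.16, adjusted p = 0.528) and 0.04 at 10% RPS (1.03-fold, 0.380 to 2.77, adjusted p = 0.986). In the fit that omitted 0% RPS replicate 2, the log2 values were 1.07, 0.62, and −0.28, with 95% intervals of −0.04 to 2.19, −0.50 to 1.74, and −1.40 to 0.83. These intervals include no difference and also differences of more than 2-fold, so at 5 mice per diet neither could be told for this gene.

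Nr1h4 encodes FXR, the nuclear receptor that senses bile acids. Its 0% RPS libraries had 7296, 2545, 6879, 6066, and 6007 normalised counts, and at 2% RPS there were 6290.1, 5598, 9391, 5906, and 7527. At 5% RPS the values were 6423, 9208, 7985, 8673, and 7362, and at 10% RPS 7467, 8685, 7004, 6894, and 7099. The highest 0% RPS library was exceeded by replicates 3 and 5 at 2% RPS, by 4 libraries at 5% RPS, and by 2 libraries at 10% RPS. The mean was 5759 ± 1878, 6942 ± 1553, 7930.2 ± 1094, and 7429.8 ± 734 in the order of the diets (SD, n = 5). The log2 fold change was 0.27 ± 0.20 (SE) at 2% RPS, 0.46 ± 0.20 at 5% RPS (95% interval 0.07 to 0.85), and 0.37 ± 0.20 at 10% RPS (−0.02 to 0.76). DESeq2 adjusted p values were 0.704, 0.210, and 0.294, and the unadjusted p at 5% RPS was 0.0202 (edgeR 0.0326). After removal of 0% RPS replicate 2, the values shrank to 0.08, 0.27 (0.01 to 0.54), and 0.18, with adjusted p values of 0.877, 0.249, and 0.445.

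Abcc3 encodes an exporter of the ABC family for conjugated bile acids and glucuronides, and it was the steadiest of the 5 genes. The 0% RPS libraries had 8386, 6859, 10894, 8115, and 9447 normalised counts, and the 2% RPS libraries had 9581, 9699, 8467, 8832, and 9601. At 5% RPS there were 8555, 9946, 9422, 9112, and 8852, and at 10% RPS 10484, 8468, 10116, 10592, and 9083. The starch diets lay inside the range of the 0% RPS libraries, whose lowest and highest values were the lowest and highest of all 20. The mean was 8740.0 ± 1516, 9236 ± 552, 9177 ± 536, and 9749 ± 931 (SD, n = 5). The log2 fold change was 0.08 (95% interval −0.11 to 0.27) at 2% RPS, 0.07 (−0.12 to 0.26) at 5% RPS, and 0.16 (−0.03 to 0.35) at 10% RPS (DESeq2 adjusted p = 0.849, 0.747, and 0.368). All 3 intervals end below 1.5-fold, which is 0.58 on this scale. Leaving out 0% RPS replicate 2 gave 0.0049, −0.0052, and 0.08.

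**Figure D3:**
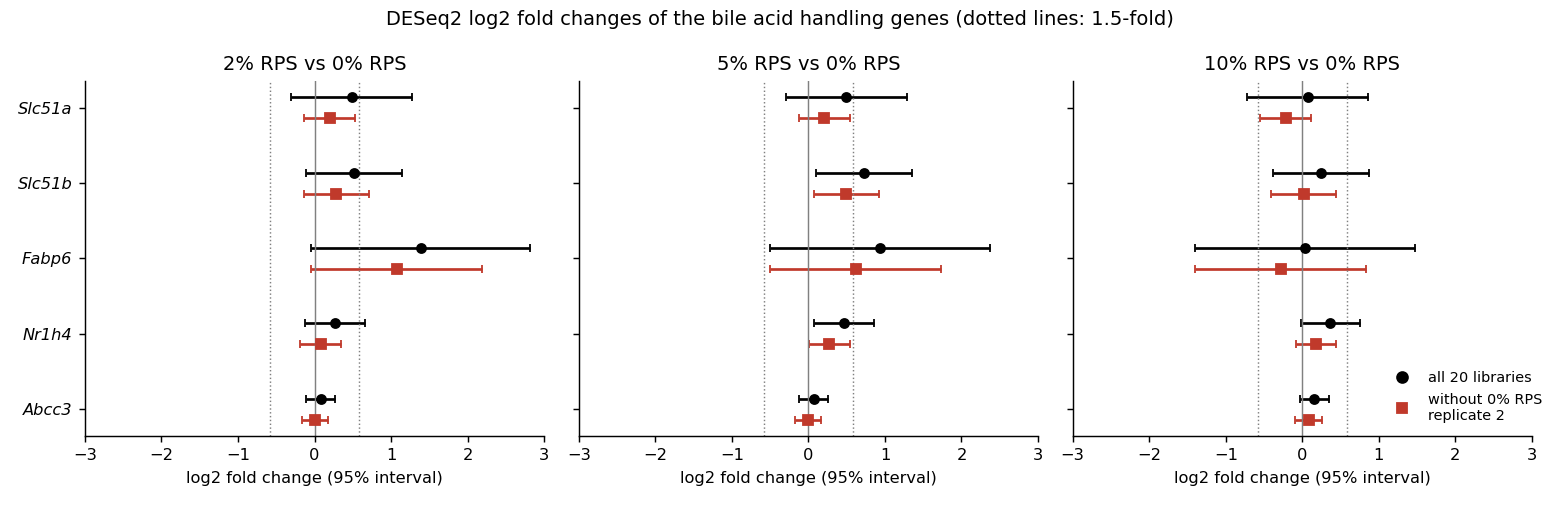
DESeq2 log2 fold changes of the 5 genes against 0% RPS (x axis) with 95% intervals, for 2, 5, and 10% RPS. Black circles use all 20 libraries, red squares leave out 0% RPS replicate 2, and dotted lines mark 1.5-fold. Abcc3 stayed inside the dotted lines, while the intervals of Fabp6 span from below 0 to beyond 1.5-fold.

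The order of the means differed between the genes. For Slc51a, Slc51b, and Nr1h4 the highest mean was at 5% RPS and the lowest at 0% RPS. For Fabp6 the order was 2%, 5%, 10%, and 0% RPS, and for Abcc3 it was 10%, 2%, 5%, and 0% RPS. Since 0% RPS replicate 2 was the lowest library of all for each gene, the last place of 0% RPS in each order includes its value. Without it, the lowest mean of Slc51a and of Fabp6 was at 10% RPS (8371 against 9748 at 0% RPS, and 2289 against 2780.5), that of Abcc3 was at 5% RPS (9177 against 9210.2), and those of Slc51b and Nr1h4 stayed at 0% RPS.

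A straight line on RPS percentage was fitted across the 4 diets, where a call needed only a p of at most 0.05 after adjustment. It called 0 of the 5 genes, with 4.29% of 12545 genes called by DESeq2, and edgeR called 0 of the 5 and 1.33% of its genes. None of the 5 had an unadjusted p under 0.05 in either test. The log2 slope per percent RPS was −0.01 for Slc51a (adjusted p = 0.941), 0.01 for Slc51b (0.866), −0.06 for Fabp6 (95% interval −0.20 to 0.08, 0.701), 0.03 for Nr1h4 (−0.0048 to 0.07, 0.340), and 0.01 for Abcc3 (0.400). With 0% RPS replicate 2 left out, DESeq2 again called 0 of the 5, with 6.43% of all genes called, and the slope of Slc51a became −0.03 (adjusted p = 0.281) and that of Fabp6 −0.09 (adjusted p = 0.373). In the same fit the slope was −0.0066 for Slc51b, 0.02 for Nr1h4, and 0.0083 for Abcc3 (adjusted p = 0.904, 0.436, and 0.570).

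The 10% RPS diet was also compared with the lower starch levels, which leaves the 0% RPS libraries out of the difference. These comparisons were added after the values had been seen. DESeq2 called 0 of the 5 genes between 10 and 2% RPS, where 0.0557% of all genes were called, and 0 of the 5 between 10 and 5% RPS, where 0.00796% were. edgeR called 0 genes of the whole table in both, although 1053 and 460 of them had p under 0.05 before adjustment. The largest of these differences was that of Fabp6 between 10 and 2% RPS, with a log2 fold change of −1.35 ± 0.73 (SE, 95% interval −2.79 to 0.08, unadjusted p = 0.0640, adjusted p = 0.595). Its value between 10 and 5% RPS was −0.90 (−2.33 to 0.53). Slc51a stood at −0.42 and −0.43 in the 2 comparisons and Slc51b at −0.26 and −0.48, all with intervals that include 0. When 0% RPS replicate 2 was left out of the shared estimate of spread, the value of Fabp6 between 10 and 2% RPS was unchanged at −1.35, its interval narrowed to −2.41 to −0.30, and its adjusted p was 0.294. In that fit Slc51a had intervals of −0.73 to −0.11 between 10 and 2% RPS and −0.74 to −0.11 between 10 and 5% RPS (unadjusted p = 0.00861 and 0.00748, adjusted 0.264 and 0.658). Slc51b had −0.66 to 0.14 and −0.88 to −0.08 (adjusted p = 0.696 and 0.865). These intervals are not adjusted for the number of genes, and no difference passed. Among the 10% RPS libraries, replicates 4 and 5 held the lowest values of Slc51a, Slc51b, and Fabp6. These 2 libraries and 2% RPS replicate 5 are the 3 libraries with label numbers far from the rest. Without the 3, the difference of Slc51b between 10 and 2% RPS and the slopes of Slc51a and Fabp6 changed sign, as given at the end.

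The relation between the genes over the 20 libraries was examined on log2 normalised counts, in 20 relations in all (10 pairs of genes, and each gene with the epithelial and smooth muscle scores). Slc51a and Slc51b went together with Pearson r = 0.916 and Spearman rho = 0.863 (permutation tests, p = 1e-05 and 2e-05, adjusted 6.67e-05 and 0.000133), where 1e-05 is the smallest p that 100000 permutations can give. Fabp6 went with Slc51a at r = 0.936 (rho = 0.929) and with Slc51b at r = 0.947 (rho = 0.854), each with an adjusted permutation p of 6.67e-05 for r and 1e-04 for rho. These relations held without the 2 libraries farthest from the median of the first gene, at 0.866, 0.860, and 0.856. They also held without 0% RPS replicate 2 (0.851, 0.876, and 0.866), and after each value was centred on the mean of its diet and that library left out (0.834, 0.853, and 0.912).

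The relations of Nr1h4 and Abcc3 depended more on single libraries. Nr1h4 had r = 0.866 with Slc51a, 0.838 with Slc51b, and 0.793 with Fabp6 (permutation tests, adjusted p = 0.00668, 0.00165, and 0.00877), but rho was 0.436, 0.629, and 0.465 (adjusted 0.138, 0.0181, and 0.126). Without the 2 farthest libraries r fell to 0.293, 0.492, and 0.272, so those with Slc51a and Fabp6 rested on these samples, which included 0% RPS replicate 2, while that with Slc51b was reduced. When that library alone was left out, r was 0.417, 0.550, and 0.374, and after centring on diet means as well it was 0.696, 0.635, and 0.627. Abcc3 had r = 0.502 with Slc51a, 0.441 with Slc51b, 0.510 with Nr1h4, and 0.505 with Fabp6 (permutation tests, adjusted p between 0.0578 and 0.0765), and −0.309, −0.0976, −0.0604, and −0.00274 without that library.

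The makeup of the segment is given beside these values. With the epithelial score, r was 0.172 for Slc51a, 0.302 for Slc51b, 0.206 for Nr1h4, 0.196 for Fabp6, and 0.450 for Abcc3, and the adjusted permutation p of r was 0.0678 or more. By rank the relation of Abcc3 with this score passed (rho = 0.585, permutation test, adjusted p = 0.0329), and those of the other 4 genes did not. With the smooth muscle score, r lay between −0.403 for Abcc3 and −0.631 for Nr1h4. The latter (permutation test, adjusted p = 0.00877) and that of Slc51a (−0.547, adjusted p = 0.0373) passed for r but not for rho (−0.457 and −0.305, adjusted 0.126 and 0.386), and r was −0.389 and −0.144 when 0% RPS replicate 2 was left out. In the remaining 19 libraries the epithelial score had r = 0.00214 with Slc51a, 0.256 with Slc51b, and 0.0839 with Fabp6. The part of tissue makeup in the joint movement of these genes was not tested further.

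**Figure D4:**
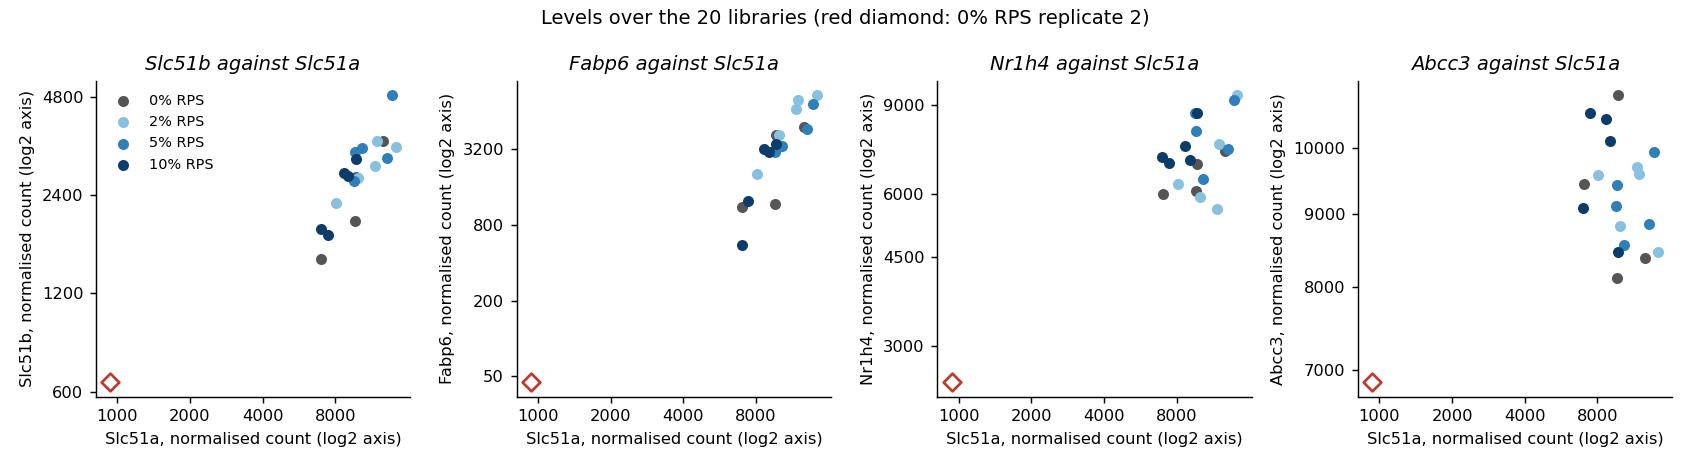
Normalised counts of Slc51b, Fabp6, Nr1h4, and Abcc3 (y axes, log2 scale) against those of Slc51a (x axis, log2 scale) in the 20 libraries, coloured by diet. Without the red diamond (0% RPS replicate 2), Slc51b and Fabp6 still follow Slc51a with r = 0.851 and 0.876, while Nr1h4 (0.417) and Abcc3 (−0.309) follow it less or not at all.

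The genes most like each of the 5 were looked for among the 11978 genes that averaged 50 or more normalised counts, by Pearson r of variance-stabilised values over the 20 libraries and with no test. For Fabp6 they were Slc51b (0.933), Slc51a (0.886), and Glod5 (0.885), and for Slc51b they were Fabp6 (0.933), Slc51a (0.909), and Tmem54 (0.905). When 0% RPS replicate 2 was omitted, the first place for Fabp6 was held by Slc51a (0.882) and the first for Slc51b by Fabp6 (0.867). For Slc51a the first place over all 20 libraries was Osr2 (0.911), followed by Ggt1 (0.910) and Gpt (0.909), but without that library Osr2 dropped to 0.132 and rank 3585, and the first 3 were Fabp6 (0.882), Pde9a (0.858), and Slc51b (0.851). For Nr1h4 they were Ano9 (0.932), Vnn1 (0.902), and Bid (0.878), and for Abcc3 the mitochondrial genes Sqor (0.877), Etfa (0.875), and Mcu (0.851). Without that library these were 0.821, 0.674, and 0.592 for Nr1h4 (ranks 3, 91, and 224), with Irak4 (0.825) in the first place. For Abcc3 they were 0.785, 0.829, and 0.765 (ranks 2, 1, and 5). For Slc51a, Ggt1 and Gpt then stood at ranks 80 and 81.

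The wider bile acid pathway was described with 62 further genes in 5 lists, of which 35 were in the table. These were 7 of 16 transporters, 10 of 14 receptors and partners, 1 of 3 genes of the feedback signal, 6 of 15 genes of synthesis and conjugation, and 11 of 14 genes of detoxification. The hormone gene Fgf15 and the receptor gene Gpbar1 were among those not analysed here. DESeq2 and edgeR called 0 of the 35 at 2, 5, and 10% RPS, and 0, 4, and 4 had an unadjusted p under 0.05 in DESeq2, where the share of all genes was 8.7, 16.6, and 18.8%. The median log2 fold change of the 35 was −0.08, −0.10, and −0.07, against −0.01, −0.01, and 0.00 over all genes tested. Of the 35 genes, 12, 8, and 13 were above 0, against 47.6, 47.4, and 50% of all genes tested. The trend called 1 of the 35, Nr1h3, in the lower direction, with both tests, beside 4.29% of all genes in DESeq2 and 1.33% in edgeR. A single call among 35 genes is near that background, and Nr1h3 is described as 1 gene.

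Nr1h3 encodes LXR alpha, a receptor for oxidised cholesterol. Its normalised counts ranged from 603 to 947 with a median of 877 at 0% RPS, from 681 to 757 with a median of 706.6 at 2% RPS, from 597 to 849 with a median of 656 at 5% RPS, and from 451 to 676 with a median of 579 at 10% RPS. It fell by 0.05 on the log2 scale per percent RPS (95% interval −0.07 to −0.03, DESeq2 adjusted p = 0.00417, edgeR 0.0395). At 10% RPS its log2 fold change was −0.51 (adjusted p = 0.00486, edgeR 0.0458), which is under the 1.5-fold threshold. With the epithelial score as a covariate, or without 3 libraries with label numbers far from the rest, the trend called 0 of the 35 genes, and Nr1h3 was thus not called. The slope was −0.05 (adjusted p = 0.000218) when 0% RPS replicate 2 was left out. The related receptor gene Nr1h2 and the RXR gene Rxrb had log2 fold changes of −0.11 and −0.17 at 10% RPS (adjusted p = 0.271 and 0.145), and Hnf4a, the receptor gene with the highest level per kilobase, had −0.03.

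Slc10a2, the apical uptake transporter, had the highest level per kilobase of the listed transporters (2613 normalised counts per kilobase). Its 0% RPS libraries had 8797, 1092, 8614, 10849, and 12284.5 normalised counts. There were 9295, 9912, 9865, 8598, and 10456 at 2% RPS, 11092, 14771, 10535, 10280.4, and 11436 at 5% RPS, and 11392, 13104, 15154, 17311, and 12120.5 at 10% RPS. The 10% RPS libraries all lay above the 2% RPS libraries, and the other pairs of diets overlapped (1.76% of all genes did not overlap between 2 and 10% RPS). The log2 fold change was 0.21, 0.48, and 0.73 at 2, 5, and 10% RPS, with a 95% interval of −0.01 to 1.47 and an adjusted p of 0.265 at 10% RPS. In the fit that omitted 0% RPS replicate 2, it was 0.45 at 10% RPS (0.19 to 0.71, adjusted p = 0.0176), under 1.5-fold. The slope per percent RPS was 0.07 with all libraries (adjusted p = 0.209) and 0.05 without that library (adjusted p = 0.00187). Between 10 and 2% RPS the value was 0.52 in both fits, with an adjusted p of 0.727 with all libraries and 0.0222 without that library.

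Other pathway genes also depended on that library. Without it, DESeq2 called 2 of the 35 at 5% RPS, Abcb1a and Ugt1a1, and 3 at 10% RPS, Abcb1a, Nr1h3, and Ppara, all lower, where 0.827 and 1.6% of all genes were called. The trend then called Abcb1a, Nr1h3, and Ppara as lower and Slc10a2 as higher, where 6.43% of all genes were called. Ugt1a1 and Ppara are named here because of these values. Abcb1a, which encodes the efflux pump P-glycoprotein, had log2 fold changes of −0.50 and −0.51 at 5 and 10% RPS with all libraries (adjusted p = 0.391 and 0.343) and −0.75 in both without that library (0.000786 and 0.00027). Ppara, a receptor for fatty acids, had −0.44 at 10% RPS with all libraries and −0.66 without (adjusted p = 0.291 and 0.000166). Ugt1a1, a glucuronidating enzyme, had −0.42 at 5% RPS with all libraries and −0.69 without (adjusted p = 0.552 and 0.0126). In that library Abcb1a was 4.50-fold, Ppara 3.55-fold, and Ugt1a1 6.03-fold lower than the mean of the other 0% RPS libraries.

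The remaining named genes of the lists did not pass with all 20 libraries. In synthesis, Cyp27a1, the first enzyme of the alternative pathway, had a log2 fold change of −0.31 at 10% RPS (95% interval −0.62 to 0.01, DESeq2 adjusted p = 0.271), and −0.43 (−0.71 to −0.15, adjusted p = 0.0400, under 1.5-fold) when 0% RPS replicate 2 was left out. Scp2 had 0.11. Hsd3b7 was near the floor of the data, with a mean of 9.04 normalised counts. In detoxification, Sult2b1, a sulphotransferase, had 0.43 at 10% RPS (0.13 to 0.73, adjusted p = 0.0819), Ephx1 −0.28 (−0.56 to −0.01, adjusted p = 0.246), and Gsta1 0.38 (−0.26 to 1.03). Cyp2c55, a cytochrome P450 of the colon, had the highest level per kilobase of all 35 genes, at 21756, with a log2 fold change of 0.09. Fgfr4, the receptor of the ileal hormone signal, had −0.10 (−0.34 to 0.14), and the transporter gene Slco2b1 had −0.12. Leaving out 0% RPS replicate 2 gave 0.05 for Scp2, 0.38 for Sult2b1, −0.31 for Ephx1, 0.24 for Gsta1, −0.10 for Cyp2c55, −0.01 for Fgfr4, −0.13 for Slco2b1, −0.09 for Nr1h2, −0.16 for Rxrb, and −0.03 for Hnf4a, and none of these passed (adjusted p of 0.126 or more).

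**Figure D5:**
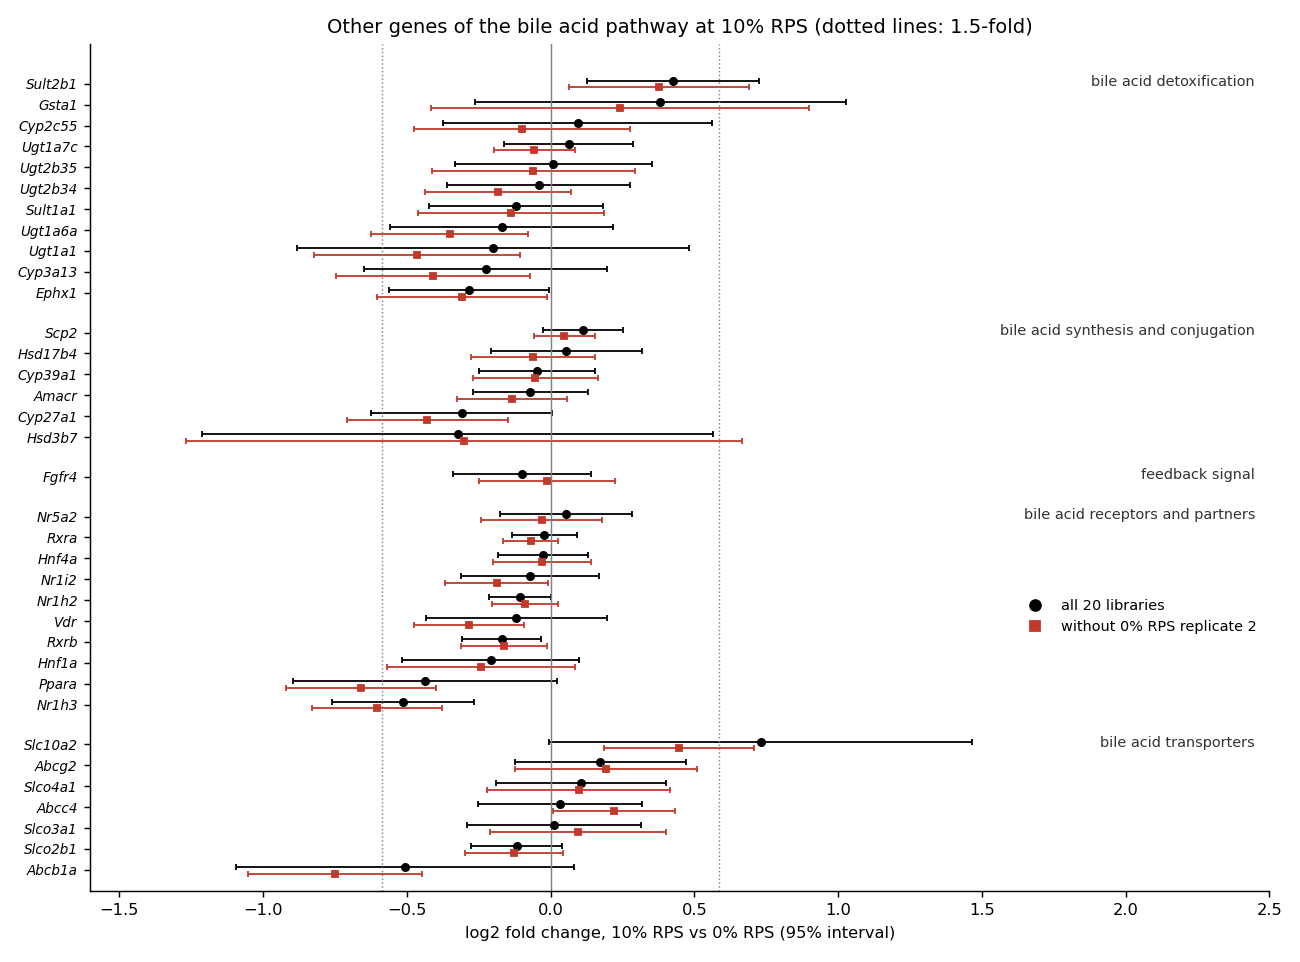
DESeq2 log2 fold changes at 10% RPS against 0% RPS (x axis) with 95% intervals for the 35 other pathway genes in the table, grouped by list. Black circles use all 20 libraries, red squares leave out 0% RPS replicate 2, and dotted lines mark 1.5-fold. Nr1h3, Ppara, and Abcb1a reach beyond the left line without that library, and Slc10a2 moves from 0.73 to 0.45.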

How the data were processed

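Stranded mRNA libraries of the PC of 20 mice were read from 1 end over 50 bases. The deposited table gives raw counts for each Ensembl gene, which the authors made by removing bases of low quality and reads with ambiguous bases and by mapping to GRCm39 in CLC Genomics Workbench. The annotation, the use of strand, the rule for reads with several matches, and the filter on genes are not given in the sources used here. Replicates were not pooled, and all columns were used. Diets were read from the treatment labels, and replicate numbers, given in accession order, only name the libraries.

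Symbols and coordinates came from GENCODE release M39 (12682 of 12701 identifiers matched). DESeq2 (version 1.42.0, R version 4.3.3) was fitted across all genes and all 20 libraries with diet as the only term, with the thresholds of the study (adjusted p of 0.05 or less, 1.5-fold or more), and 12561 genes received a p in the comparisons of diets. All adjusted p values are from DESeq2 over all genes unless another test is named. edgeR (version 4.0.16, quasi-likelihood test, 12366 genes) and sva (version 3.50.0) gave alternatives. Both tests were tested on simulated data. Intervals are 95% Wald intervals. Ratios were compared by exact permutation, and correlations by 100000 permutations, two-sided, with Benjamini-Hochberg adjustment. A count of 3 stands at 2.29 to 3.95 normalised counts, which covers counting error only. Each mouse gave 1 library, so the tests of diets set differences against the spread between these mice. In DESeq2 this spread was estimated over all 20 libraries, 0% RPS replicate 2 among them.

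Promoters were the 250 bases before the canonical start of each protein-coding gene, read from GRCm39. All members present are named, with the 3 pathway genes of each list that had the smallest p at 10% RPS, the gene of highest level per kilobase, and any gene called. The members and lists were chosen with earlier results of these data known. Alternatives were another test or scaling, filters, covariates for tissue makeup, a surrogate variable, leaving out 3 libraries with label numbers far from the rest, and leaving out every library once.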

Additional observations from a re-analysis of the deposited data

Results flagged for a closer look

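A library was looked at again where its gap to the nearest other library of its diet, divided by the range of the diet, exceeded 0.71. Of 60 groups of 5 libraries examined, 3 held such a library, and chance alone gives about 1 in 20 groups. Nr1h4 in 0% RPS replicate 2 had 2545 normalised counts, against 6007 to 7296 in the other 4 libraries of the diet. The ratio of Slc51b to Slc51a counts in the same library was 0.687, against 0.208 to 0.280. The fibroblast marker score of 2% RPS replicate 5 was 10.98, against 11.5 to 11.8 in the other 2% RPS libraries. In that library the 5 bile acid genes lay inside the range of the other 19 libraries.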

How the results depend on the processing

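Of 590 alternative values of the log2 fold changes and slopes of the 5 genes, 569 kept their direction and their side of the threshold, 20 changed sign, and 1 passed the threshold (Slc51b at 5% RPS without 0% RPS replicate 1), and the cause was not tested. The calls among the 5 genes at 5% RPS ranged from 0 to 1 with each library left out. Among the 35 pathway genes, calls at 5% RPS were 1 with a surrogate variable and 0 to 2 with each library left out. At 10% RPS they were 1 with a surrogate variable, 1 with no fold threshold, and 0 to 3 with each library left out. In the trend they were 0 with the epithelial score as a covariate, 4 with a surrogate variable, 0 without the 3 libraries with distant label numbers, and 1 to 4 with each library left out (4 without 0% RPS replicate 2, 3 without 10% RPS replicate 2). The Slc51b to Slc51a log2 ratio difference ranged from −0.30 to 0.13 at 2% RPS, from −0.12 to 0.31 at 5% RPS, and from −0.18 to 0.25 at 10% RPS with each library left out. It was −0.0283 at 5% RPS without the logarithm, and at 10% RPS 0.13 with medians and 0.0701 without the 3 libraries.

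The values of the single genes that changed sign were as follows. With the epithelial score as a covariate, Abcc3 at 5% RPS was −0.0099, Fabp6 at 10% RPS −0.0473, and the slope of Slc51b −0.00243. With each library left out, Abcc3 at 5% RPS ranged from −0.0052 to 0.16, Slc51a at 10% RPS from −0.22 to 0.30, Fabp6 at 10% RPS from −0.28 to 0.51, the slope of Slc51a from −0.0306 to 0.0025, and that of Slc51b from −0.0066 to 0.0282. The slope of Slc51a was 0.0016 with a surrogate variable. Without the 3 libraries it was 0.0177, that of Fabp6 0.0246, and Slc51b between 10 and 2% RPS 0.0271. The slope of Slc51b over 2, 5, and 10% RPS alone was −0.0403. No paired analysis was possible because no label numbers the mice alike across diets.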
